A study of Mus musculus with 86 samples.

Results

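Gene expression in whole testes of mice heterozygous for a Btbd18 mutation was compared between postnatal day 18 (P18) and postnatal day 28 (P28). The libraries were chosen by their labels as the heterozygous controls of those ages, which gave 5 of the 86 samples in the series: 3 at P18 and 2 at P28. All 5 came from hybrid mice that the labels write as C57BL/6 (B6) X 129/SvJ, and all carried 1 mutated and 1 intact allele of Btbd18, so none is wild type. Homozygous Btbd18 knockouts of the same background and ages (3 libraries at P18 and 2 at P28) are used below only to set their own change over the same ages beside that of the heterozygotes. Testes of both genotypes at P10 and P14, and spermatocytes and round spermatids purified from heterozygotes aged 4 months, on the same background, are cited for levels only. The labels do not say whether libraries came from separate animals or from pooled testes. The p values therefore describe only how far these libraries spread, which may be technical. RNA was poly(A)-selected from whole testes, and in such bulk samples fewer cells of a type and less RNA per cell cannot be told apart.

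The first wave of mouse spermatogenesis moves through the testis nearly in step, so a younger testis lacks the later germ cell stages. Meiotic spermatocytes divide into haploid round spermatids, which then build an acrosome, shape and compact the nucleus with transition proteins and protamines, and grow a tail while transcription shuts down. Sertoli cells nurse the germ cells inside the tubules, and Leydig cells between the tubules make testosterone.

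Library totals were 6867875, 8013457 and 8889581 counts at P18 and 9701528 and 9744505 at P28. Of 24276 listed features (genes and piRNA loci), 16334 passed the filter on low counts, and 14096 reached 1 CPM (counts scaled to library size) in every P18 library against 15187 in both P28 libraries. Counts differed between pairs of P18 libraries by 4.21 to 8.22 times the sampling variance and between the P28 libraries by 1.69 times, so no library was a copy of another. Btbd18 itself, which the labels give as heterozygous, had 16.1, 12.5 and 12.4 CPM at P18 and 7.497 and 8.598 CPM at P28. Levels below are CPM on TMM-scaled library sizes. Changes are log2 fold changes of P28 over P18 ± standard error from edgeR's quasi-likelihood test, and a feature was called at a Benjamini-Hochberg adjusted p under 0.05 over all tested features. CPM is not corrected for length, so levels of different genes are not ranked.

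The step from P18 to P28 was lopsided in size rather than in number. The test called 5131 features higher at P28 (31.4% of those tested) and 5037 lower (30.8%), 62.3% in either direction, and the median change over all tested features was -0.07. Among the called features that moved by at most 1 log2 unit, 2252 rose and 3923 fell. Above 6 log2 units, 485 rose and 3 fell. A rise of more than 4-fold was called for 1556 features (9.53%) and a fall of that size for 128 (0.784%), and 891 (5.45%) rose more than 16-fold. The balance of the calls depends on the scaling: 50.5% of them were rises with TMM, 59.6% with the RLE size factors of DESeq2 and 31.7% with library totals alone. With library totals the median of all tested features moved to -0.41, so small changes are to be read against that median. Both P28 libraries lay above all P18 libraries for 5980 tested features (36.6%) and below all of them for 6257 (38.3%).

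The 891 features that rose more than 16-fold took 0.0772%, 0.0836% and 0.192% of all counts in the P18 libraries, and 6.65% and 6.82% in the P28 libraries. Their low P18 level was uneven: P18 replicate 3 held the highest of the P18 values for 594 of them, replicate 2 for 90 and replicate 1 for 73. Summed over these features, replicate 3 had 1992 CPM against 870.3 and 882 CPM in replicates 1 and 2, and the P28 libraries had 89519 and 93744 CPM. The same features took 0.0966% and 0.0964% of counts in the P28 knockout libraries. Of features already at 100 CPM or more in every P18 library, 1033 of 2871 tested rose, where 31.4% of all tested features did. Of those, 18 rose more than 4-fold, where 9.53% of all tested features did.

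**Figure D1:**
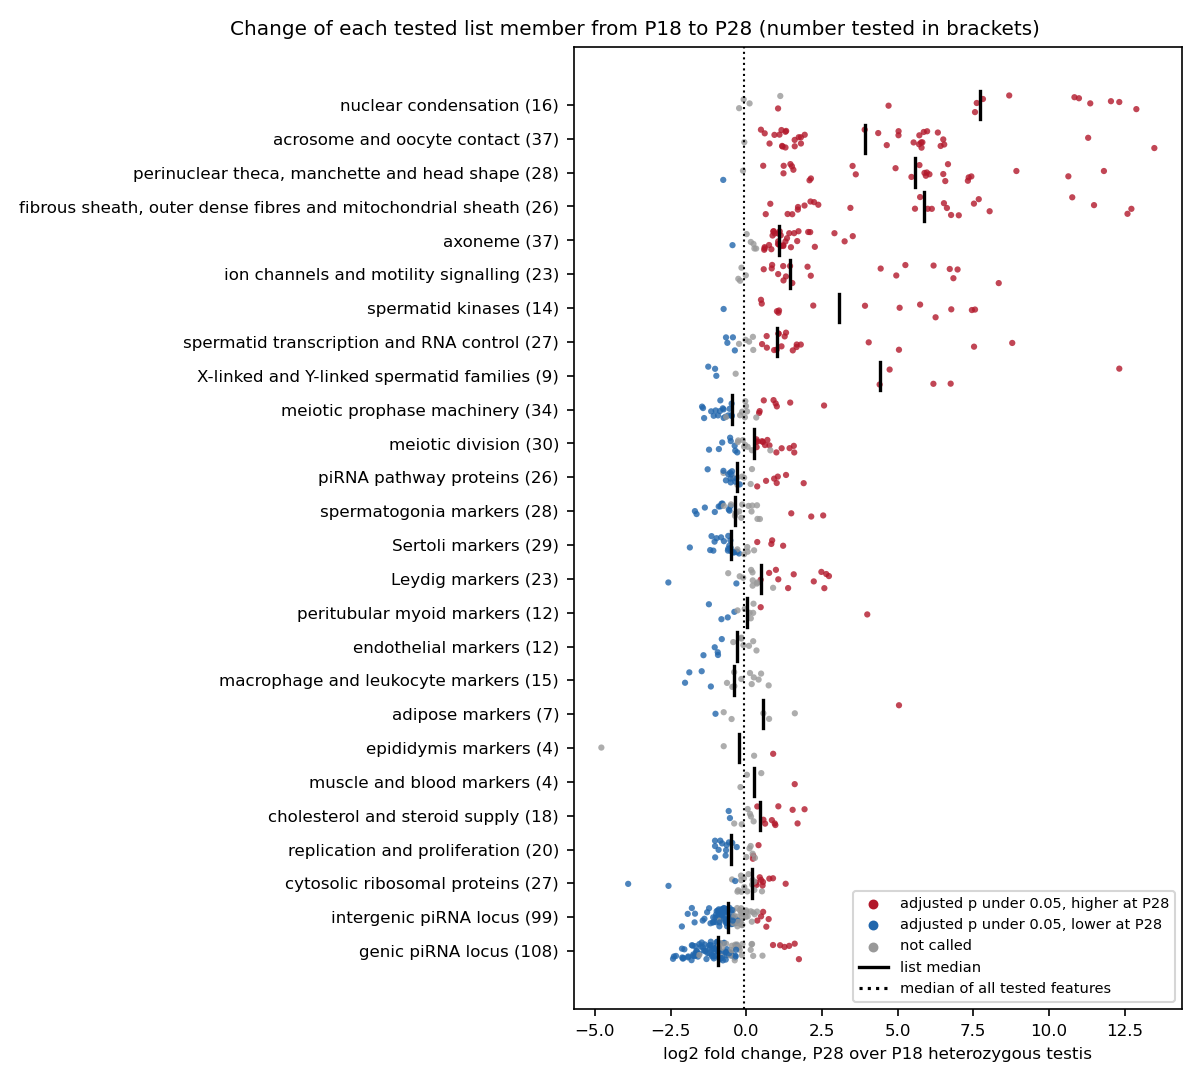
Log2 fold change from P18 to P28 (x axis) of every tested member of 24 gene lists and of the 2 kinds of piRNA loci (y axis, number tested in brackets). Each point is a gene or locus, coloured by call, the black bar is the list median and the dotted line the median of all tested features. Spermatid lists at the top reach medians of 7.72 (nuclear condensation) and 5.87 (fibrous sheath, outer dense fibres and mitochondrial sheath), and the somatic and meiotic lists lie between -1 and 1.

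Genes that pack the sperm nucleus made up the list with the highest median. Of 17 listed genes 16 were tested, 12 rose, none fell and the median change was 7.72, and 11 of the 12 rose more than 16-fold. The counts of this and the following lists stand beside the shares of all tested features. Of these, 31.4% rose, 30.8% fell and 5.45% rose more than 16-fold. The protamines Prm1 and Prm2 replace nearly all histones in the sperm head, and Prm1 had 0.493, 0.395 and 0.3497 CPM at P18 and 1008 and 1201 CPM at P28 (log2 change 11.37 ± 0.21, adjusted p = 4.63e-19). Prm2 had 0.164, 0 and 0.466 CPM at P18 and 1731 and 1888 CPM at P28 (log2 change 12.89 ± 0.23, adjusted p = 3.14e-17). Both genes thus went from under 1 CPM in every P18 library to 1008 CPM or more in both P28 libraries. They lie on chromosome 16 (GRCm38.p6) at 10796332 to 10796823 and 10791377 to 10792105, beside Prm3 at 10790508 to 10790914 and Tnp2 at 10787935 to 10788655.

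The transition proteins, which sit on the DNA between histones and protamines, behaved alike. Tnp2 had 0.657, 1.32 and 0.699 CPM at P18 and 1748 and 1968 CPM at P28 (log2 change 10.99 ± 0.15, adjusted p = 2.29e-21). Tnp1, on chromosome 1, had 0, 0.263 and 0.3497 CPM at P18 and 965 and 1057 CPM at P28 (log2 change 12.05 ± 0.20, adjusted p = 7.57e-20). Prm3, an acidic protein encoded in the protamine cluster, was at 0 in P18 replicates 1 and 2 and at 0.350 CPM in replicate 3, and had 57.5 and 65.1 CPM at P28 (adjusted p = 4.03e-11). The spermatid linker histones rose as well. Hils1 had 1.15, 1.58 and 6.18 CPM at P18 and 715 and 736 CPM at P28 (log2 change 7.82 ± 0.26). H1fnt was at 0, 0 and 0.466 CPM at P18 and had 338 and 373 CPM at P28 (log2 change 10.84 ± 0.29). In both linker histone genes P18 replicate 3 was the highest P18 library, and neither overlapped with P28. Tssk6, a kinase needed for nuclear condensation, had 1.48, 1.45 and 0.699 CPM at P18 and 212 and 235 CPM at P28 (log2 change 7.56 ± 0.19). The histone variant H2afb1 had 0 counts at P18 and 67.5 and 79.1 CPM at P28 (at least 544-fold higher), with the reserve that near-identical gene copies may share its reads.

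Members of the list that act earlier were already expressed at P18 and were not called. Brdt, a bromodomain protein that reads acetylated histones, had 509, 394 and 339 CPM at P18 and 442 and 451 CPM at P28, and Rnf8, a ubiquitin ligase, had 43.7, 45.1 and 49.1 CPM at P18 and 39.99 and 46.8 CPM at P28. The P28 and P18 values of both genes overlapped.

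**Figure D2:**
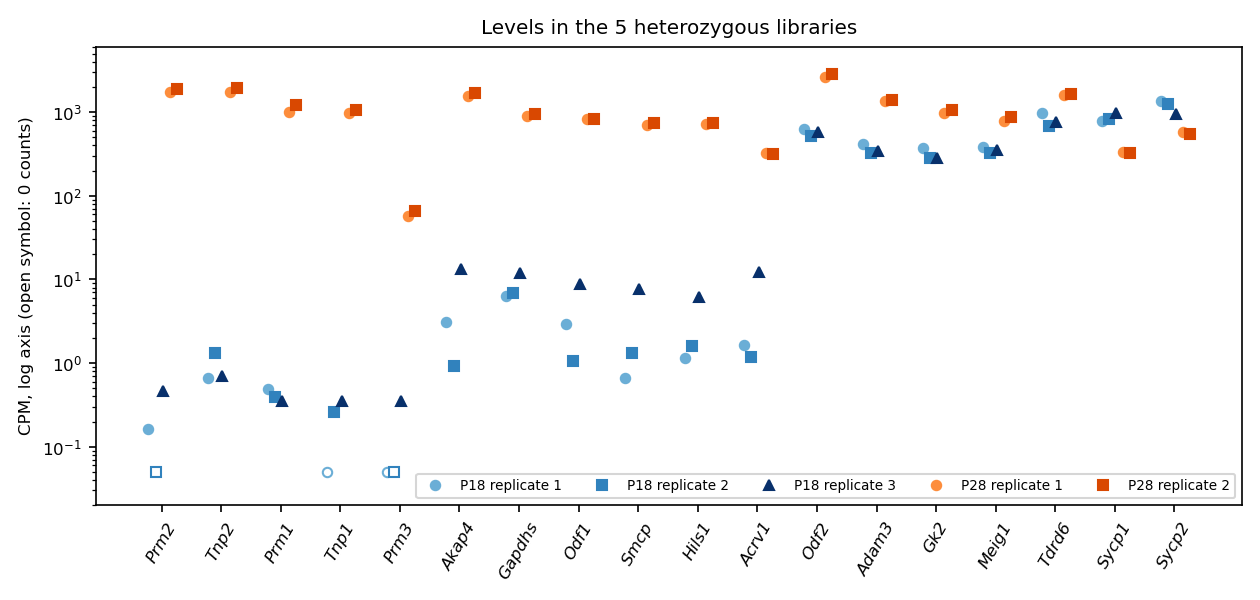
CPM on a log axis for 18 genes in each of the 5 heterozygous libraries, blue for P18 and orange for P28, with open symbols for 0 counts. Protamine and transition protein genes go from under 2 CPM to between 57.5 and 1968 CPM, while genes already expressed at P18 (Odf2, Adam3, Gk2, Meig1, Tdrd6) rise less and Sycp1 and Sycp2 fall.

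The sequences before the starts of these genes are shown because genes that rise together in spermatids are classically read through variants of the cyclic AMP response element (CRE), bound by the CREM factor. RefSeq's promoter table on GRCm38.p6 gave a window of 250 bases before to 50 after the start for 12680 tested genes. The lines below hold the 120 bases before the start, 5′ to 3′ on the gene's own strand. Capitals mark a match to the 8-base CRE-like word TGATGTCA on either strand, or, in Prm2, to TATAAA on the other strand.
Tnp1 (chr1:73015900-73016019, minus strand): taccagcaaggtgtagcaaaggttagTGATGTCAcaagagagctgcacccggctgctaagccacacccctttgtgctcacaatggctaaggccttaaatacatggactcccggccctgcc
Akap4 (chrX:7067395-7067514, plus strand): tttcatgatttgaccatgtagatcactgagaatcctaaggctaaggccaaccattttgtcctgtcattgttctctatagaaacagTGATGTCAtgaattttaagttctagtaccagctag
Gapdhs (chr7:30743682-30743801, minus strand): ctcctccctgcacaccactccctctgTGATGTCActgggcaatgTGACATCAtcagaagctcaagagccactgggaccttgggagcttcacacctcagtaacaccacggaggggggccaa
Stard10 (chr7:101316966-101317085, plus strand): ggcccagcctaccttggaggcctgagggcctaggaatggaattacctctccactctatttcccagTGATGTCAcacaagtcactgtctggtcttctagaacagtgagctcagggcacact
Prm1 (chr16:10796824-10796943, minus strand): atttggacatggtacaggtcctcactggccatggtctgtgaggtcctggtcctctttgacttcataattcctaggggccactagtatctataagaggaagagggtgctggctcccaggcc
Prm2 (chr16:10792106-10792225, minus strand): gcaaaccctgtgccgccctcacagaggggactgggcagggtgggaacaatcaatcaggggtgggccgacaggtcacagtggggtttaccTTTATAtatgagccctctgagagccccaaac
Tnp2 (chr16:10788656-10788775, minus strand): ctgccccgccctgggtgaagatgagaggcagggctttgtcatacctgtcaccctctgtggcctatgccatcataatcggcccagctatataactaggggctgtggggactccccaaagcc
Prm3 (chr16:10790915-10791034, minus strand): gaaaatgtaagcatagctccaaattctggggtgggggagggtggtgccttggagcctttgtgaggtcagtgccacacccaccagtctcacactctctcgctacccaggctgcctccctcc
Tnp1, Akap4 and Stard10 each show the CRE-like word, and Gapdhs shows it on both strands. Tnp1, Gapdhs and Stard10 were picked for printing because they hold the word there, so their matches are examples and no result. Of 15 promoters of the nuclear condensation list, 1 held the word in the 300-base window. The 4 genes of the chromosome 16 cluster show none in these 120 bases, which says only that these letters are not there.

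The CRE-like word was more frequent the more a gene rose. It was searched after the Tnp1 promoter had been read, on both strands of the 300-base windows. It was present in 1.41% of promoters of genes that were not called (66 of 4695), 1.61% of those that rose under 2-fold and 1.94% of those that rose 2 to 4-fold. The share was 5.78% for a rise of 4 to 16-fold (30 of 519), 9.35% for 16 to 64-fold (29 of 310) and 21.4% above 64-fold (82 of 383). Among genes that fell more than 4-fold it was found in 0 of 91. Over all 27025 promoters in the table the share was 3.76%, and over the 12680 tested genes it was 2.51%. Promoters of genes that were not tested thus held the word more often than those of tested genes. Many steep risers were barely detected at P18, and the part of this in the gradient was not tested. The full CRE, TGACGTCA, showed no such gradient, with 1.93% to 3.79% in every class, and TATAAA was found in 5.35% to 15.4%. The shorter TGACGT, which the full CRE contains, was found in 5.49% to 13.5%, and the X-box of RFX factors in under 1% of every class. In genes that rose more than 16-fold, 101 of 117 matches (86.3%) began in the 100 bases before the start, against 231 of 335 (69.0%) in all tested genes. A match is a description of the sequence and no evidence of binding, and members of gene families share promoter sequence.

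**Figure D3:**
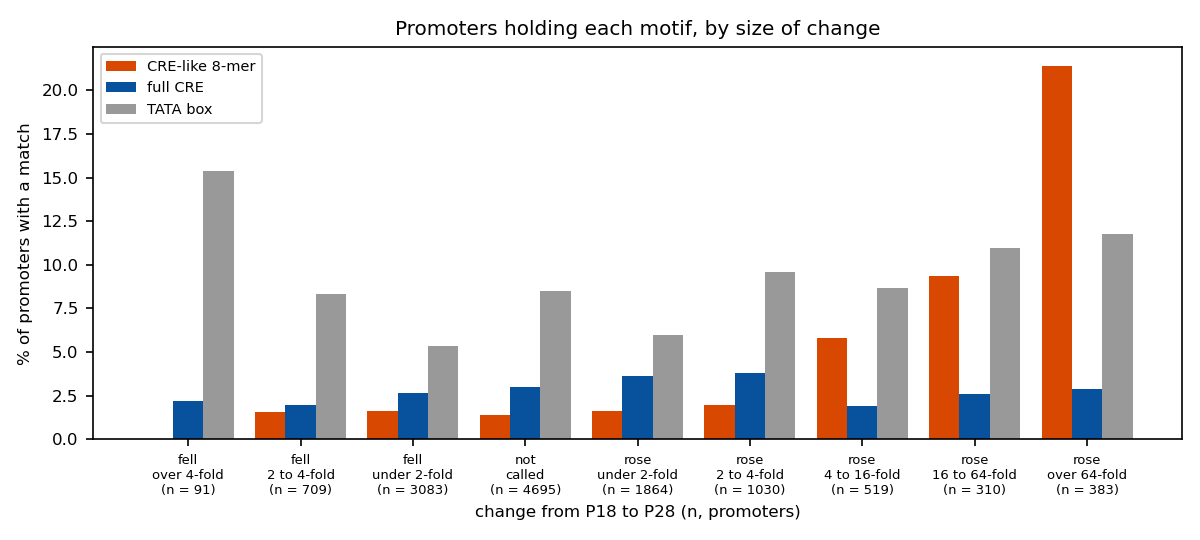
Share of promoters (y axis, %) that hold the CRE-like 8-base word, the full CRE or a TATA box, for genes grouped by their change from P18 to P28 (x axis, number of promoters in brackets). The CRE-like bars climb from 1.41% of genes that were not called to 21.4% of genes that rose more than 64-fold, and the full CRE bars stay between 1.93% and 3.79%.

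The acrosome is the enzyme-filled cap that meets the egg coat, and 36 of the 37 genes listed for it rose, none fell, and 18 rose more than 16-fold (median change 3.91). The members fell into early and late groups by their P18 level. Zpbp, a matrix protein that binds the zona pellucida, had 255, 212 and 194 CPM at P18 and 498 and 503 CPM at P28 (log2 change 1.19 ± 0.15). Acr, the protease acrosin, had 91.8, 78.9 and 85.2 CPM at P18 and 271 and 296 CPM at P28 (log2 change 1.74 ± 0.18). Adam2 had 625, 499 and 448 CPM at P18 and 969 and 1029.7 CPM at P28 (log2 change 0.93 ± 0.17) and its partner on the sperm surface Adam3 had 410.1, 324 and 343 CPM at P18 and 1359.6 and 1381 CPM at P28 (log2 change 1.93 ± 0.15). These genes were at 78.9 CPM or more in all P18 libraries and did not overlap with P28.

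Genes for the acrosomal membrane and for gamete fusion rose by more. Spaca1, an inner acrosomal membrane protein, had 4.93, 8.17 and 14.8 CPM at P18 and 205 and 191 CPM at P28 (log2 change 4.36 ± 0.22). Acrv1, an acrosomal matrix antigen, had 1.64, 1.19 and 12.2 CPM at P18 and 321 and 312 CPM at P28 (log2 change 5.86 ± 0.39). Izumo1, the fusion protein recognised by the egg, had 0.657, 0.395 and 2.22 CPM at P18 and 96.4 and 92.3 CPM at P28 (log2 change 6.33 ± 0.36). In each of these 3 genes P18 replicate 3 was the highest P18 library. The hyaluronidases Spam1 and Hyal5, which loosen the cumulus, had 1.15, 1.32 and 7.23 CPM at P18 and 89.8 and 83.4 CPM at P28 and 0, 0.395 and 4.55 CPM at P18 and 103 and 107 CPM at P28. Spaca3 had 0.493, 0.132 and 2.68 CPM at P18 and 114 and 112 CPM at P28 (log2 change 6.54 ± 0.39) and Tmem190 had 0.164, 0.527 and 1.399 CPM at P18 and 72.2 and 68.4 CPM at P28 (log2 change 6.51 ± 0.30). Sppl2c, a membrane protease of spermatids, was at 0.233 CPM or less in every P18 library and had 363 and 386 CPM at P28 (adjusted p = 1.72e-14). Prss37, a protease-like protein needed for sperm to pass into the oviduct, had 0 counts at P18 and 162 and 165 CPM at P28 (at least 1214-fold higher). Of the called genes in this group, Adam2 had the largest adjusted p, 1.65e-04.

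Genes of the perinuclear theca and of the manchette, the microtubule skirt that shapes the head, rose in 26 of 28 tested cases, 16 of them more than 16-fold (median 5.59). Actl11 and Actrt2, actin-related proteins of the sperm head, had 0.657, 0.7904 and 3.61 CPM at P18 and 314 and 323 CPM at P28 and 0, 0.263 and 2.22 CPM at P18 and 445 and 479.8 CPM at P28 (log2 change 7.44 ± 0.30 and 8.93 ± 0.35). Both were highest at P18 in replicate 3. Spem1, which is needed to remove cytoplasm from the sperm neck, was at 0.132 CPM or less at P18 and had 359 and 392 CPM at P28, and Actrt3 was detected in 1 P18 library at 0.132 CPM and had 92.3 and 96.8 CPM at P28. Meig1, a manchette protein, was already expressed and had 378, 328 and 353 CPM at P18 and 792 and 873 CPM at P28 (log2 change 1.24 ± 0.17). Plcz1, the phospholipase that triggers calcium waves in the egg, had 2.13, 2.11 and 8.51 CPM at P18 and 175 and 169 CPM at P28 (log2 change 5.26 ± 0.35). Ssfa2 was the one member that fell, with 140.0, 135 and 145 CPM at P18 and 86.4 and 79.1 CPM at P28 (log2 change -0.76 ± 0.09). In the edgeR test none of these calls had an adjusted p above 3.94e-06, that of Meig1.

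Every one of the 26 tested genes for the accessory structures of the tail rose, 15 of them more than 16-fold, with a median change of 5.87. Akap4, the X-linked main scaffold of the fibrous sheath, had 3.12, 0.922 and 13.3 CPM at P18 and 1578 and 1680.3 CPM at P28 (log2 change 8.04 ± 0.34). Its P18 libraries spanned more than 1 order of magnitude, with replicate 3 highest and replicate 2 lowest. Odf1, an outer dense fibre protein, had 2.96, 1.05 and 8.74 CPM at P18 and 819 and 834 CPM at P28 (log2 change 7.52 ± 0.28), and Odf2 had 626, 521 and 579 CPM at P18 and 2607 and 2837 CPM at P28 (log2 change 2.24 ± 0.12). Neither gene overlapped between the ages. Smcp, a cysteine-rich protein of the mitochondrial sheath, had 0.657, 1.32 and 7.58 CPM at P18 and 703 and 737 CPM at P28 (log2 change 7.68 ± 0.37), and with DESeq2 its change missed the threshold (adjusted p = 0.178), as did that of Hyal5 above (adjusted p = 0.168). Tppp2 had 0 counts at P18 and 85.1 and 91.8 CPM at P28 (at least 656-fold higher). Oxct2a, a testis form of the enzyme that burns ketone bodies, also had 0 counts and then 92.3 and 101 CPM at P28 (at least 717-fold higher). Its near-identical neighbour Oxct2b had 1 count over the P18 libraries and 99.7 and 107 CPM at P28, and both copies may share reads. The actin bundler Fscn3 had 1 count over the P18 libraries and 161 and 179 CPM at P28. The least certain call named here was Smcp, at an adjusted p of 2.27e-09.

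The axoneme, the microtubule core of the tail, followed another course: 31 of 37 tested genes rose, but none more than 16-fold, and the median change was 1.08. Over all tested features 31.4% rose and 5.45% rose more than 16-fold. The tektins, filaments inside the doublet microtubules, rose most. Tekt5 had 23.6, 20.4 and 21.1 CPM at P18 and 253 and 244 CPM at P28 (log2 change 3.52 ± 0.13) and Tekt2 had 49.9, 38.9 and 47.6 CPM at P18 and 426 and 438 CPM at P28 (log2 change 3.25 ± 0.12). Tekt4 had 44.8, 44.7 and 62.95 CPM at P18 and 375 and 396 CPM at P28 (log2 change 2.92 ± 0.21), and Tekt3 had 62.7, 53.1 and 63.5 CPM at P18 and 281 and 295 CPM at P28 (log2 change 2.27 ± 0.18). Their P18 libraries lay close together and far below both P28 libraries. Radial spoke and central pair genes changed less: Rsph1 had 889.7, 705 and 673 CPM at P18 and 1115 and 1189 CPM at P28 (log2 change 0.61 ± 0.13), Spag6 had 451, 341 and 334 CPM at P18 and 781 and 834 CPM at P28 (log2 change 1.11 ± 0.18) and Hydin had 177, 145 and 143 CPM at P18 and 250.3 and 222 CPM at P28 (log2 change 0.61 ± 0.14). Outer arm dynein heavy chains were not called, with 2376, 1979 and 1549 CPM at P18 and 2055 and 1921 CPM at P28 for Dnah8, where the groups overlapped, and 711, 588 and 612 CPM at P18 and 817 and 780.5 CPM at P28 for Dnah17. The light chain Dnal1 fell, with 43.999, 46.2 and 40.6 CPM at P18 and 32.5 and 31.2 CPM at P28 (log2 change -0.45 ± 0.10). Summed over the list, the axoneme genes had 8369, 6823 and 6492 CPM at P18 and 12686 and 12849.5 CPM at P28, with P18 replicate 1 the highest of the P18 libraries. Adjusted p was at most 8.79e-04 (edgeR, for Hydin) among the called genes named here.

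Among ion channels and motility signalling genes, 19 of 23 rose, none fell and the median change was 1.45. The sperm calcium channel CatSper is built from several subunits, whose changes differed widely in size. Catsper2 had 142, 120.4 and 156 CPM at P18 and 554 and 581 CPM at P28 (log2 change 2.03 ± 0.15). Catsper1 had 0.821, 0.395 and 4.197 CPM at P18 and 147 and 139.7 CPM at P28 (log2 change 6.19 ± 0.37), Catsper3 had 0.164, 0.263 and 1.63 CPM at P18 and 81.8 and 81.2 CPM at P28 (log2 change 6.72 ± 0.39) and Catsper4 had 0.657, 0.395 and 2.098 CPM at P18 and 130.4 and 129 CPM at P28 (log2 change 6.84 ± 0.32). Each of the 4 was detected in every P18 library and none overlapped between the ages. Atp1a4, the sodium pump of the sperm tail, had 0.493, 1.19 and 3.03 CPM at P18 and 547 and 562 CPM at P28 (log2 change 8.34 ± 0.31). Lrrc52, a subunit of the sperm potassium channel, had 0.164, 0 and 0.466 CPM at P18 and 27.5 and 32.7 CPM at P28 (log2 change 6.98 ± 0.43), and Slc26a8, an anion transporter, had 199, 158 and 177 CPM at P18 and 361 and 378 CPM at P28 (log2 change 1.06 ± 0.15). Of the called genes in this group, Slc26a8 had the largest adjusted p, 4.42e-06.

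Spermatid kinases rose in 13 of 14 tested cases (median 3.07). The testis-specific serine kinases Tssk1 and Tssk2, encoded side by side, had 7.88, 7.38 and 15.9 CPM at P18 and 351 and 362 CPM at P28 and 0.657, 1.05 and 5.95 CPM at P18 and 481 and 503 CPM at P28 (log2 change 5.07 ± 0.22 and 7.45 ± 0.29). Tssk3 had 0.328, 0.7904 and 1.52 CPM at P18 and 102 and 107 CPM at P28 (log2 change 6.77 ± 0.30) and Tssk5 had 0, 0.132 and 0.3497 CPM at P18 and 16.9 and 12.5 CPM at P28 (log2 change 6.26 ± 0.52). Camk4, a calcium-dependent kinase, had 2.298, 2.898 and 3.85 CPM at P18 and 45.4 and 48.5 CPM at P28 (log2 change 3.92 ± 0.21). Stk31, a kinase-like protein with a Tudor domain, fell, with 524, 496 and 337 CPM at P18 and 273 and 267 CPM at P28 (log2 change -0.75 ± 0.15). In the edgeR test none of these calls had an adjusted p above 3.06e-04, that of Stk31.

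Of 27 tested regulators of spermatid transcription and RNA, 18 rose and 4 fell, with a median of 1.01. Crem had 153, 130.4 and 108 CPM at P18 and 317 and 311 CPM at P28 (log2 change 1.27 ± 0.14), and its nuclear export motor Kif17 had 8.21, 7.38 and 15.3 CPM at P18 and 338 and 357 CPM at P28 (log2 change 5.05 ± 0.18). The CREM co-activator Fhl5 had 0.328, 0.527 and 1.98 CPM at P18 and 185 and 198 CPM at P28 (log2 change 7.53 ± 0.23). Sox30 had 82.6, 70.7 and 67.3 CPM at P18 and 228 and 239 CPM at P28 (log2 change 1.67 ± 0.13), Sox5 had 7.39, 6.98 and 11.7 CPM at P18 and 136 and 155 CPM at P28 (log2 change 4.05 ± 0.17) and the ciliary gene factor Rfx2 had 411, 349.7 and 341 CPM at P18 and 591 and 586 CPM at P28 (log2 change 0.68 ± 0.12). Crem, Sox30 and Rfx2 were thus at 67.3 CPM or more in every P18 library. Spert, a leucine zipper protein of spermatids, had 0.493, 0.263 and 2.45 CPM at P18 and 495 and 544 CPM at P28 (log2 change 8.79 ± 0.29). Ybx2, a protein that binds stored mRNA, had 852, 744 and 765 CPM at P18 and 1579 and 1724 CPM at P28 (log2 change 1.07 ± 0.15). Dazl, an RNA-binding protein of germ cells, fell, with 796, 814 and 809 CPM at P18 and 521 and 526 CPM at P28 (log2 change -0.62 ± 0.08), as did the chromatin reader Brwd1 with 178, 169 and 156 CPM at P18 and 111 and 99.7 CPM at P28 (log2 change -0.67 ± 0.09), and Taf7l with 124, 132 and 150.3 CPM at P18 and 100.4 and 99.5 CPM at P28 (log2 change -0.44 ± 0.08). Paip2b, an inhibitor of translation, had 139, 145 and 135 CPM at P18 and 112 and 103 CPM at P28 (log2 change -0.38 ± 0.09). The least certain call named here was Paip2b, at an adjusted p of 0.00153.

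Features that were silent at P18 and expressed at P28 numbered 140, counted as 0 counts in all 3 P18 libraries and at least 10 in each P28 library, and none met the reverse rule. With at least 30 counts in each P28 library the number was 75. Among them was Cabs1, a calcium-binding protein of the sperm tail, with 274 and 289.8 CPM at P28 (at least 2091-fold higher). Ubqlnl, a ubiquilin-like gene, had 168 and 177 CPM at P28 (at least 1280.1-fold higher), Prss55, a testis protease, had 147 and 153 CPM at P28 (at least 1114-fold higher) and Fam71b had 142 and 157 CPM at P28 (at least 1108-fold higher). Of the 140, 4 were in the gene lists, and 83 also had 0 counts in every knockout testis library.

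Some enzymes exist in a general form and in a germline form encoded by a separate gene, often a retroposed copy that stands in for an X-linked parent. Of 26 pairs with both genes tested, 20 of the 26 germline genes rose and 1 fell (median 1.02). Of the 25 general genes 7 rose and 7 fell (median -0.18), near the 31.4% and 30.8% of all tested features. The germline gene had the higher signed log2 change in 21 of the 26 pairs. Glycolytic enzymes make up the first group. Pgk2, the germline phosphoglycerate kinase, had 168, 131 and 154 CPM at P18 and 963 and 1017 CPM at P28 (log2 change 2.72 ± 0.18). Gapdhs, the sperm form of glyceraldehyde phosphate dehydrogenase, had 6.403, 6.85 and 11.8 CPM at P18 and 906 and 959 CPM at P28 (log2 change 6.77 ± 0.17). The sperm aldolases Aldoart1 and Aldoart2 had 11.000, 10.8 and 13.2 CPM at P18 and 138 and 144 CPM at P28 and 7.72, 7.25 and 15.7 CPM at P18 and 348 and 341 CPM at P28 (log2 change 3.59 ± 0.15 and 5.04 ± 0.21), against 173, 194 and 195 CPM at P18 and 421 and 446 CPM at P28 for the general gene Aldoa (log2 change 1.21 ± 0.07). Pgk1 and Gapdh had under 3 CPM in every library. Both have many processed copies that may share reads, so their levels are not set beside those of Pgk2 and Gapdhs. Both are still in the pair counts and medians above, Gapdh as a fall (log2 change -1.17 ± 0.43). The same reserve holds for Rpl10, another of the falls (log2 change -2.57 ± 0.64).

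Outside glycolysis, the tubulin Tubb4b had 538, 499 and 474 CPM at P18 and 985 and 1039 CPM at P28 (log2 change 1.01 ± 0.09) against 370.4, 456 and 441 CPM at P18 and 301 and 292 CPM at P28 for Tubb5 (log2 change -0.51 ± 0.13). Rbmxl2, a germline splicing factor, had 75.03, 72.98 and 73.9 CPM at P18 and 114 and 124 CPM at P28 (log2 change 0.69 ± 0.10), and its X-linked relative Rbmx had 15.1, 18.05 and 18.3 CPM at P18 and 10.97 and 7.19 CPM at P28 (log2 change -0.92 ± 0.16). The pattern had exceptions. Slc25a31, the germline exchanger of ATP and ADP, had 286, 259 and 209 CPM at P18 and 168 and 167 CPM at P28 (log2 change -0.58 ± 0.14). Cstf2t was not called, with 136, 112 and 111 CPM at P18 and 112 and 114 CPM at P28, and its X-linked parent Cstf2 rose, with 80.1, 78.8 and 93.7 CPM at P18 and 103 and 114 CPM at P28 (log2 change 0.36 ± 0.08). The rise of Cstf2 was lost with library totals (0.02). Adjusted p was at most 0.00208 (edgeR, for Tubb5) among the called genes named here.

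Genes on the X chromosome, which is silenced during meiosis and only partly read again in spermatids, split into many that fell and a group that rose steeply. Of 656 tested X-linked genes 134 rose (20.4%) and 291 fell (44.4%), and the median was -0.43. On the autosomes 32.2% of 15396 rose, 29.8% fell and the median was -0.04. Rises of more than 16-fold were called for 59 X-linked genes (8.99%) and for 5.34% of autosomal genes. The share of all counts on the X went from 1.69%, 1.93% and 2.102% at P18 to 1.37% and 1.32% at P28, and it had been 3.496% to 3.59% at P10 and 3.02% and 3.14% at P14.

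Besides Akap4, the X-linked risers included Tsga8, a spermatid nuclear protein, with 8.87, 4.87 and 15.7 CPM at P18 and 259 and 276 CPM at P28 (log2 change 4.74 ± 0.24), and the tetraspanin Tspan6 with 10.3, 11.2 and 10.5 CPM at P18 and 79.97 and 86.4 CPM at P28 (log2 change 2.96 ± 0.16). The phosphatase gene Dusp21 had 0 counts at P18 and 12.9 and 14.5 CPM at P28 (at least 102-fold higher). Cypt2 and Cypt3, of a family of spermatid basic proteins, had 0.328, 0.395 and 1.63 CPM at P18 and 64.1 and 60.9 CPM at P28 and 0.164, 0.132 and 1.05 CPM at P18 and 53.3 and 55.7 CPM at P28 (log2 change 6.18 ± 0.34 and 6.75 ± 0.38), with the reserve that family copies may share reads. On the Y chromosome 8 genes were tested, 7 fell and none rose. Usp9y, a deubiquitinase, had 58.8, 49.7 and 57.01 CPM at P18 and 21.1 and 25.1 CPM at P28 (log2 change -1.25 ± 0.13). The zinc finger genes Zfy1 and Zfy2 had 8.701, 7.38 and 14.5 CPM at P18 and 4.44 and 5.64 CPM at P28 and 14.6, 10.8 and 20.5 CPM at P18 and 7.77 and 7.75 CPM at P28 (log2 change -1.03 ± 0.31 and -0.99 ± 0.36). Without P18 replicate 3 or without P28 replicate 1, neither Zfy1 (-0.66 and -0.81) nor Zfy2 passed the threshold. Of the called genes in this group, Zfy2 had the largest adjusted p, 0.0208.

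**Figure D4:**
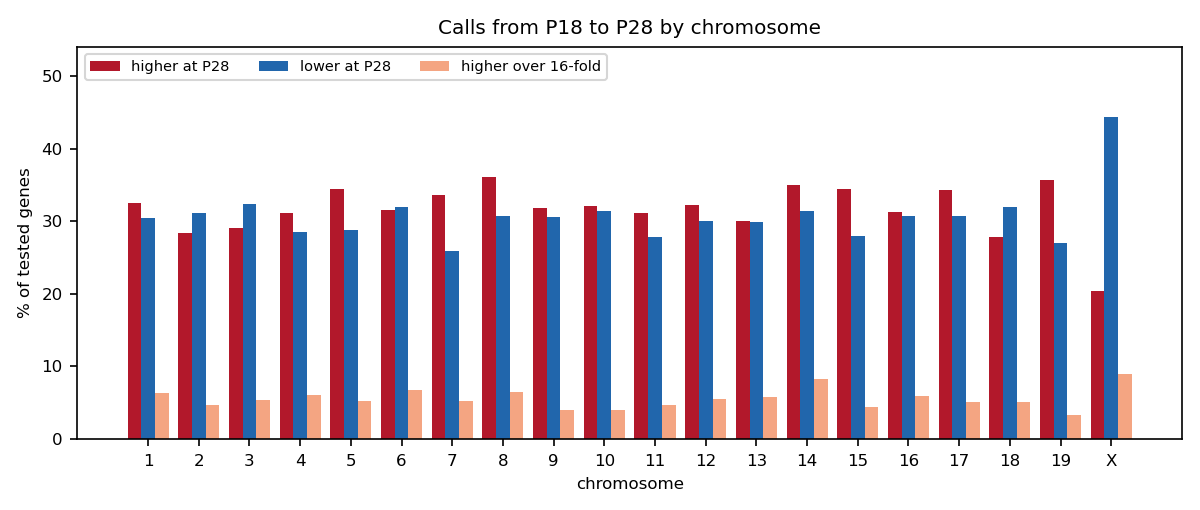
Percent of tested genes on each chromosome (x axis) called higher at P28, lower at P28, or higher by more than 16-fold (y axis). The X bars stand apart, with 20.4% higher, 44.4% lower and 8.99% higher by more than 16-fold, against 32.2%, 29.8% and 5.34% over the autosomes.

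Genes of meiotic prophase fell more often than they rose: 18 of 34 fell, 8 rose and the median was -0.48, where 30.8% of all tested features fell and 31.4% rose. Sycp1, the transverse filament of the synaptonemal complex, had 783, 830.4 and 986 CPM at P18 and 335 and 326 CPM at P28 (log2 change -1.39 ± 0.20). The lateral element proteins Sycp2 and Sycp3 had 1362, 1243 and 943 CPM at P18 and 573 and 551 CPM at P28 and 456, 469 and 539 CPM at P18 and 267 and 274 CPM at P28 (log2 change -1.07 ± 0.17 and -0.85 ± 0.19). Hormad1, which marks unpaired axes, had 235, 231 and 243 CPM at P18 and 79.97 and 92.2 CPM at P28 (log2 change -1.46 ± 0.26), and the recombination factor Meiob had 96.04, 107 and 83.1 CPM at P18 and 41.8 and 43.6 CPM at P28 (log2 change -1.16 ± 0.28). In all 5 genes both P28 libraries lay below every P18 library. The central element genes of the same complex went the other way. Syce1 had 269.6, 227 and 208 CPM at P18 and 442 and 479 CPM at P28 (log2 change 0.97 ± 0.13), Syce2 had 59.3, 62.97 and 64.002 CPM at P18 and 121 and 129 CPM at P28 (log2 change 1.01 ± 0.09) and Syce3 had 25.9, 25.95 and 22.97 CPM at P18 and 66.4 and 70.1 CPM at P28 (log2 change 1.45 ± 0.18). The meiotic cohesin Rec8 rose most, with 9.19, 17.3 and 27.3 CPM at P18 and 110.4 and 108 CPM at P28 (log2 change 2.57 ± 0.26), and replicate 3 was its highest P18 library and replicate 1 its lowest. Stag3, of the same cohesin, had 799, 717 and 696 CPM at P18 and 1092 and 1113 CPM at P28 (log2 change 0.58 ± 0.11). 4933406J08Rik fell, with 40.4, 43.1 and 34.7 CPM at P18 and 13.2 and 16.1 CPM at P28 (log2 change -1.43 ± 0.28). In the edgeR test none of these calls had an adjusted p above 0.00129, that of Meiob.

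Genes of the meiotic divisions were mixed, with 14 of 30 higher (31.4% of all tested features were), 8 lower (30.8% of all) and a median of 0.26 that turned to -0.08 with library totals. Ccna1, the cyclin of the spermatocyte's entry into division, had 113, 90.4 and 109 CPM at P18 and 296 and 329 CPM at P28 (log2 change 1.59 ± 0.24). The phosphatase Cdc25c had 6.07, 6.19 and 7.93 CPM at P18 and 20.7 and 19.7 CPM at P28 (log2 change 1.57 ± 0.17), and the mitotic kinases Plk1 and Aurka had 50.2, 37.7 and 49.5 CPM at P18 and 112 and 135 CPM at P28 and 166, 133 and 139 CPM at P18 and 316 and 339 CPM at P28 (log2 change 1.43 ± 0.11 and 1.17 ± 0.12). Ccnb1 had 15.4, 17.3 and 16.2 CPM at P18 and 33.2 and 31.997 CPM at P28 (log2 change 1.0 ± 0.11), while its partner Cdk1 was not called, with 96.04, 85.5 and 76.5 CPM at P18 and 85.1 and 81.9 CPM at P28. The X-linked cyclin Ccnb3 had 44.7, 49.4 and 59.2 CPM at P18 and 24.02 and 19.7 CPM at P28 (log2 change -1.23 ± 0.19), the cohesin acetyltransferase Esco2 had 68.1, 77.1 and 75.1 CPM at P18 and 40.4 and 38.2 CPM at P28 (log2 change -0.90 ± 0.13) and the checkpoint protein Mad2l1 had 67.97, 64.8 and 57.4 CPM at P18 and 37.9 and 35.1 CPM at P28 (log2 change -0.79 ± 0.15). Ccnb1ip1, a crossover factor, had 35.95, 26.3 and 21.9 CPM at P18 and 20.1 and 18.3 CPM at P28, and its fall missed the threshold without P18 replicate 1 (-0.28). With either P28 library left out, 5 of the 30 fell. The least certain call named here was Ccnb1ip1, at an adjusted p of 0.0259.

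Proteins of the piRNA pathway, which makes the small RNAs that silence transposons in germ cells, were split: 7 of 26 rose, 12 fell and the median was -0.31, against 31.4% and 30.8% of all tested features. Gtsf1, a partner of PIWI proteins, had 80.8, 67.6 and 62.95 CPM at P18 and 255 and 269 CPM at P28 (log2 change 1.9 ± 0.11). Ddx25, a helicase of the spermatid chromatoid body, had 535, 434 and 409 CPM at P18 and 1127 and 1158 CPM at P28 (log2 change 1.32 ± 0.15), and Tdrd6, a scaffold of that body, had 968, 690.0 and 759 CPM at P18 and 1588 and 1649 CPM at P28 (log2 change 1.01 ± 0.18). Mael had 1049, 884 and 810.3 CPM at P18 and 1844 and 1922 CPM at P28 (log2 change 1.04 ± 0.13). On the other side, Asz1, a mitochondrial-surface protein, had 120.3, 123 and 105 CPM at P18 and 49.1 and 46.8 CPM at P28 (log2 change -1.27 ± 0.16), and the helicase Mov10l1 had 474, 431 and 399 CPM at P18 and 290.0 and 286 CPM at P28 (log2 change -0.59 ± 0.10). Piwil2 had 979, 840.4 and 655 CPM at P18 and 522 and 515 CPM at P28 (log2 change -0.67 ± 0.14) and Tdrd1 had 780.5, 651 and 513 CPM at P18 and 454 and 442 CPM at P28 (log2 change -0.53 ± 0.14). Piwil1, the PIWI protein of late meiosis and spermatids, was not called, with 1282, 1059 and 848 CPM at P18 and 873 and 865 CPM at P28, where P28 lay inside the P18 range. The number of falls was 7 without P18 replicate 1, 6 without P28 replicate 2 and 7 with DESeq2. Adjusted p was at most 0.00307 (edgeR, for Tdrd1) among the called genes named here.

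The piRNA loci themselves, counted here as long poly(A) RNA, mostly fell. Of 99 tested intergenic loci 59 fell and 5 rose (median -0.61). Of 108 tested loci named after a gene 78 fell and 6 rose (median -0.94). Over all tested features 30.8% fell and 31.4% rose. Summed intergenic counts were 13353, 12688 and 9717 CPM at P18 and 8190.1 and 7656 CPM at P28, with P18 replicate 3 nearest to P28 without overlap. Without P28 replicate 2, 33 intergenic loci fell and 2 rose. Locus 7-qD2-40 had 130.0, 137 and 130.3 CPM at P18 and 40.4 and 41.6 CPM at P28 (log2 change -1.69 ± 0.09), a locus on chromosome 15 (band qE1) had 52.9, 50.7 and 38.4 CPM at P18 and 14.99 and 12.1 CPM at P28 (log2 change -1.8 ± 0.15) and pi-D730040F13Rik had 39.4, 48.3 and 47.4 CPM at P18 and 11.8 and 15.1 CPM at P28 (log2 change -1.75 ± 0.14). Those that rose included pi-Asb1 with 8.701, 9.09 and 9.21 CPM at P18 and 27.5 and 32.8 CPM at P28 (log2 change 1.74 ± 0.18), pi-Klf13 with 10.5, 10.01 and 11.7 CPM at P18 and 23.05 and 23.7 CPM at P28 (log2 change 1.12 ± 0.17) and pi-Ip6k1 with 67.3, 64.02 and 61.2 CPM at P18 and 114 and 123 CPM at P28 (log2 change 0.89 ± 0.09). A locus named after a gene may share its reads with that gene. Of the called genes in this group, pi-Klf13 had the largest adjusted p, 1.02e-05.

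Of 28 spermatogonial markers 11 fell and 3 rose (median -0.36), where 30.8% of all tested features fell and 31.4% rose. Ret, the receptor through which stem cells read GDNF, had 16.7, 17.7 and 18.5 CPM at P18 and 5.28 and 5.64 CPM at P28 (log2 change -1.69 ± 0.23). The stem cell factor Zbtb16 had 27.4, 35.6 and 45.8 CPM at P18 and 14.9 and 13.5 CPM at P28 (log2 change -1.37 ± 0.19), Foxo1 had 95.2, 84.2 and 105 CPM at P18 and 42.9 and 49.6 CPM at P28 (log2 change -1.04 ± 0.11) and Lin28a had 38.7, 37.9 and 43.7 CPM at P18 and 19.9 and 22.98 CPM at P28 (log2 change -0.91 ± 0.12). Kit, a receptor of differentiating spermatogonia, had 70.9, 109.6 and 114 CPM at P18 and 55.8 and 53.6 CPM at P28 (log2 change -0.85 ± 0.16), while Stra8, the gene of entry into meiosis, was not called, with 47.4, 61.3 and 65.4 CPM at P18 and 54.3 and 49.9 CPM at P28. Not every listed gene followed: Dmrtb1, a factor at the switch from mitosis to meiosis, had 362, 284 and 329.7 CPM at P18 and 877 and 946 CPM at P28 (log2 change 1.49 ± 0.15), and Ngfr had 5.58, 6.19 and 9.68 CPM at P18 and 32.5 and 31.997 CPM at P28 (log2 change 2.15 ± 0.22). In purified cells of older heterozygotes Dmrtb1 had 318 ± 16.5 CPM in spermatocytes and 533 ± 40.4 CPM in round spermatids (SD, n = 3 each). Genes of replication and proliferation fell in 12 of 20 cases and rose in 3 (median -0.52). The proliferation marker Mki67 had 194, 198 and 207 CPM at P18 and 101 and 95.1 CPM at P28 (log2 change -1.03 ± 0.09), the replication licensing factor Cdt1 had 23.8, 27.1 and 28.9 CPM at P18 and 12.5 and 13.7 CPM at P28 (log2 change -1.03 ± 0.13) and the cyclin Ccne2 had 82.1, 78.6 and 76.5 CPM at P18 and 41.4 and 42.6 CPM at P28 (log2 change -0.91 ± 0.20). Ccne2 had 203 ± 18.0 CPM in the purified spermatocytes and 38.3 ± 12.9 CPM in the purified round spermatids. The 3 rises were small and none was called upward with library totals. They were Rrm2 with 0.41 ± 0.11, Mcm7 with 0.23 ± 0.09 and Rrm1 with 0.22 ± 0.09, the last 2 at -0.11 and -0.12 with library totals. In the edgeR test none of these calls had an adjusted p above 0.0381, that of Rrm1.

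Sertoli cell markers fell in 20 of 29 cases and rose in 4 (median -0.51), where 30.8% of all tested features fell and 31.4% rose. With RLE size factors 14 of the 29 fell. Their sum was 5313, 5921 and 6296 CPM at P18 and 4948 and 4933 CPM at P28. Kitl, the ligand of Kit, had 166, 191 and 164 CPM at P18 and 82.9 and 74.3 CPM at P28 (log2 change -1.15 ± 0.14), the FSH receptor Fshr had 21.01, 21.1 and 23.3 CPM at P18 and 9.72 and 10.9 CPM at P28 (log2 change -1.09 ± 0.19) and the anti-Müllerian hormone Amh had 33.8, 37.5 and 35.9 CPM at P18 and 17.1 and 17.6 CPM at P28 (log2 change -1.05 ± 0.21). Sox9, the Sertoli transcription factor, had 61.2, 60.3 and 72.05 CPM at P18 and 41.5 and 44.3 CPM at P28 (log2 change -0.59 ± 0.12). All 4 were lower in both P28 libraries than in every P18 library. The exceptions were Trf, which supplies iron to germ cells, with 40.2, 54.8 and 51.99 CPM at P18 and 92.3 and 85.98 CPM at P28 (log2 change 0.86 ± 0.18), Defb19 with 82.7, 118 and 111 CPM at P18 and 190.2 and 181 CPM at P28 (log2 change 0.83 ± 0.20), Amhr2 with 402, 478 and 508 CPM at P18 and 595 and 598 CPM at P28 (log2 change 0.36 ± 0.12) and Ptgds with 1.64, 4.08 and 9.21 CPM at P18 and 10.97 and 13.4 CPM at P28. With library totals 1 of the 4 rises was called. The rise of Ptgds missed the threshold without P18 replicate 1 (0.90), where its level had been lowest. The least certain call named here was Ptgds, at an adjusted p of 0.0185.

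Leydig cell genes rose in 11 of 23 cases and fell in 2 (median 0.48), where 31.4% of all tested features rose and 30.8% fell. Insl3, a peptide hormone of mature Leydig cells, had 6.73, 13.2 and 15.97 CPM at P18 and 85.2 and 77.7 CPM at P28 (log2 change 2.73 ± 0.39). The steroid enzymes Cyp11a1 and Cyp17a1 had 53.2, 139 and 74.4 CPM at P18 and 442 and 397 CPM at P28 and 73.7, 176 and 76.4 CPM at P18 and 697 and 606 CPM at P28 (log2 change 2.23 ± 0.35 and 2.58 ± 0.48), both highest at P18 in replicate 2. Hsd17b3, which makes testosterone in the adult, had 2.46, 5.27 and 5.25 CPM at P18 and 26.8 and 23.1 CPM at P28 (log2 change 2.48 ± 0.29). Star, which carries cholesterol into mitochondria, was not called, with 106, 75.7 and 44.4 CPM at P18 and 148 and 127 CPM at P28, and its P18 values were spread widely without overlapping P28. In purified cells of older heterozygotes Star had 630 ± 105 CPM in spermatocytes and 6.38 ± 6.44 CPM in round spermatids (SD, n = 3 each). Its reads in whole testes therefore cannot be assigned to Leydig cells alone. Thbs2, a matrix protein on the Leydig list, fell, with 15.3, 11.3 and 12.6 CPM at P18 and 1.39 and 2.96 CPM at P28 (log2 change -2.57 ± 0.28). The steroid factor Nr5a1 had 123, 131 and 137 CPM at P18 and 107 and 101 CPM at P28 (log2 change -0.32 ± 0.09). The same steroid genes were also high in the P28 knockouts, at 86.98 and 93.7 CPM for Insl3 and 765 and 728 CPM for Cyp17a1. Adjusted p was at most 0.00421 (edgeR, for Nr5a1) among the called genes named here.

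Cholesterol synthesis genes, which serve both steroid output and the sterols of spermatids, rose in 10 of 18 cases and fell in 2 (median 0.47), but not along the whole pathway. Over all tested features 31.4% rose and 30.8% fell. Fdps, Fdft1, Sqle and Cyp51 are named for the size of their rise. Fdps had 11.3, 13.7 and 11.3 CPM at P18 and 33.5 and 36.8 CPM at P28 (log2 change 1.53 ± 0.14), and the squalene synthase Fdft1 had 94.9, 74.95 and 85.7 CPM at P18 and 314 and 333 CPM at P28 (log2 change 1.93 ± 0.12). Sqle had 95.4, 91.4 and 79.6 CPM at P18 and 182 and 188 CPM at P28 (log2 change 1.06 ± 0.09) and Cyp51 had 46.1, 52.6 and 36.4 CPM at P18 and 148 and 143 CPM at P28 (log2 change 1.7 ± 0.14). Hmgcs1, at the start of the pathway, was not called, with 167, 167 and 158 CPM at P18 and 189 and 176 CPM at P28. Mvd had 19.4, 17.7 and 17.95 CPM at P18 and 11.9 and 13.2 CPM at P28 (log2 change -0.54 ± 0.14), and the sterol-sensing transcription factor Srebf2 had 129.9, 129.6 and 123 CPM at P18 and 91.5 and 79.4 CPM at P28 (log2 change -0.58 ± 0.12). Mvd missed the threshold without P28 replicate 1 (-0.41). In purified cells of older heterozygotes the list summed to 293 ± 91.6 CPM in spermatocytes and 954 ± 53.7 CPM in round spermatids (SD, n = 3 each). Of the called genes in this group, Mvd had the largest adjusted p, 0.00284.

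Markers of the tubule wall and of blood vessels moved in both directions. Of 12 peritubular myoid markers 4 fell, a share near the 30.8% of all tested features, and 2 rose (median 0.03, -0.32 with library totals). The smooth muscle myosin Myh11 had 201, 186 and 194 CPM at P18 and 84.97 and 79.9 CPM at P28 (log2 change -1.23 ± 0.09), and Mylk had 178, 187 and 199 CPM at P18 and 124 and 122 CPM at P28 (log2 change -0.61 ± 0.09). The smooth muscle actin Acta2 had 311, 322 and 289.8 CPM at P18 and 235 and 233 CPM at P28 (log2 change -0.39 ± 0.11), and its fall missed the threshold without either P28 library. Actg2, listed as a smooth muscle actin, went far the other way with 13.8, 11.5 and 11.9 CPM at P18 and 193 and 202 CPM at P28 (log2 change 4.0 ± 0.13), and had 11.3 and 10.6 CPM in the P28 knockouts. In purified cells it had 7.904 ± 8.87 CPM in spermatocytes and 46.5 ± 12.02 CPM in round spermatids of older heterozygotes (SD, n = 3 each). Mylk had 148 ± 14.1 CPM in those spermatocytes and 52.2 ± 8.98 CPM in those round spermatids. Without P28 replicate 2, 2 of the 12 markers fell. Of 12 endothelial markers 5 fell, against the same 30.8%, and none rose (median -0.29). Cdh5, the junction protein of endothelium, had 34.5, 37.5 and 35.2 CPM at P18 and 12.9 and 13.95 CPM at P28 (log2 change -1.41 ± 0.15) and Ptprb had 24.8, 28.5 and 34.04 CPM at P18 and 16.4 and 17.1 CPM at P28 (log2 change -0.81 ± 0.14). Kdr and Pecam1 fell by 0.94 and 1.04 on the log2 scale, and without P28 replicate 2 both missed the threshold and 2 markers fell. In the edgeR test none of these calls had an adjusted p above 0.00426, that of Acta2.

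Macrophage and leukocyte markers fell in 4 of 15 cases, a share below the 30.8% of all tested features that fell, and none rose (median -0.39). The antigen-presenting genes H2-Aa and Cd74 had 20.2, 10.01 and 3.497 CPM at P18 and 2.64 and 2.68 CPM at P28 and 48.3, 25.6 and 13.1 CPM at P18 and 7.36 and 8.03 CPM at P28 (log2 change -2.02 ± 0.53 and -1.88 ± 0.41). Both varied widely at P18, with replicate 1 highest and replicate 3 lowest. H2-Ab1, which encodes the partner chain of H2-Aa, was not called, with 22.2, 15.02 and 11.2 CPM at P18 and 23.05 and 21.6 CPM at P28. Ptprc, the common leukocyte antigen, had 6.57, 3.29 and 5.48 CPM at P18 and 1.94 and 1.69 CPM at P28 (log2 change -1.47 ± 0.34). In the P28 knockouts H2-Aa had 27.4 and 24.1 CPM. Markers of tissues that could adhere to a dissected testis were low. Of 12 epididymis markers 4 were tested, of 12 muscle and blood markers 4, and of 10 adipose markers 7. Adipoq, a fat hormone, rose, with 0.328, 0.132 and 0.466 CPM at P18 and 11.9 and 9.73 CPM at P28 (log2 change 5.05 ± 0.70), and Lpl, a lipoprotein lipase that is also on the fat list, fell, with 16.9, 11.2 and 8.39 CPM at P18 and 5.41 and 6.34 CPM at P28 (log2 change -1.01 ± 0.38). The fall of Lpl missed the threshold without P18 replicate 1 (-0.69), without P28 replicate 1 (-0.85) and without P28 replicate 2 (-1.08). None of the other 5 tested fat markers was called, and Fabp4 and Car3 among them stayed under 1 CPM in all 5 libraries. Adipoq had 21.4 ± 37.04 CPM in spermatocytes, from values of 64.2, 0 and 0 CPM, and 149 ± 59.3 CPM in round spermatids of older heterozygotes. Alas2, of heme synthesis in red cells, had 8.21, 12.3 and 14.6 CPM at P18 and 36.7 and 35.4 CPM at P28 (log2 change 1.6 ± 0.32), and Rnase10, of the epididymis, had 5.75, 3.29 and 3.61 CPM at P18 and 7.497 and 7.89 CPM at P28 (log2 change 0.89 ± 0.34). The least certain call named here was Rnase10, at an adjusted p of 0.0293.

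Cytosolic ribosomal protein genes rose in 9 of 27 cases, near the 31.4% of all tested features that rose, and fell in 3, with a median of 0.20 that turned to -0.15 with library totals. Rps2 had 28.4, 23.4 and 20.8 CPM at P18 and 39.3 and 42.3 CPM at P28 (log2 change 0.76 ± 0.18) and Rpl32 had 80.1, 76.5 and 78.5 CPM at P18 and 109 and 122 CPM at P28 (log2 change 0.55 ± 0.09). Rpl3 fell, with 20.03, 17.9 and 19.1 CPM at P18 and 0.833 and 1.69 CPM at P28 (log2 change -3.9 ± 1.15). It had 22.4, 18.1 and 19.04 CPM in the P18 knockouts and 0.951 and 1.28 CPM in the P28 knockouts. Rpl3 was the gene with the largest fall on this list, and both P28 libraries lay below every P18 library. Processed copies of ribosomal protein genes may take part of their reads. Adjusted p was at most 0.00591 (edgeR, for Rpl3) among the called genes named here.

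Outside the lists, the 10 rises with the smallest p were of genes that were detected at P18. Txndc2, a sperm thioredoxin, had 0.985, 1.45 and 1.399 CPM at P18 and 379.9 and 399 CPM at P28 (log2 change 8.21 ± 0.17), and Hspa1l, a spermatid heat shock protein, had 2.298, 3.82 and 4.197 CPM at P18 and 402 and 448 CPM at P28 (log2 change 6.91 ± 0.15). Stard10, a lipid transfer protein, had 33.3, 33.99 and 40.6 CPM at P18 and 636 and 675 CPM at P28 (log2 change 4.18 ± 0.10). Clpb, a mitochondrial chaperone, had 64.5, 65.997 and 59.9 CPM at P18 and 558 and 587 CPM at P28 (log2 change 3.17 ± 0.08). Their P18 libraries lay close to each other, unlike those of Akap4. The choice of these rises by p in these same libraries makes such closeness, and detection at P18, likely. Clmn, Spata7, Fam71f2, 2610318N02Rik, 4933411K16Rik and 4921507P07Rik completed the set, with changes of 5.82 ± 0.13, 4.31 ± 0.11, 7.14 ± 0.19, 6.93 ± 0.18, 8.74 ± 0.22 and 5.8 ± 0.15. The 10 falls with the smallest p were smaller. Ppp2r2c, a phosphatase subunit, had 61.1, 63.2 and 48.8 CPM at P18 and 4.44 and 3.81 CPM at P28 (log2 change -3.8 ± 0.21). Notch1, a cell contact receptor, had 96.9, 89.97 and 97.1 CPM at P18 and 20.3 and 19.03 CPM at P28 (log2 change -2.27 ± 0.16), and the histone methyltransferase gene Kmt2a had 107, 127 and 129 CPM at P18 and 38.3 and 32.3 CPM at P28 (log2 change -1.78 ± 0.12). The others, Hs6st2, Ntn4, Phip, Dmxl1, Vps13d, Atp2b1 and Il6st, fell by between 1.13 and 1.94 on the log2 scale. All 10 were lower in both P28 libraries than in every P18 library, which their choice by p in these same libraries makes likely. Of the called genes in this group, Il6st had the largest adjusted p, 2.08e-10.

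The libraries were not dominated by a few transcripts at either age. The 10 features with the most counts took 2.38% to 2.72% of counts at P18 and 2.50% and 2.63% at P28. Ribosomal RNA precursor reads (Rn45s) led at P18 with a mean of 0.716% and were at 0.291% at P28, where Fhl4, a testis LIM-domain gene, led with 0.348%. The germline lactate dehydrogenase Ldhc had 1953, 1627 and 1393 CPM at P18 and 4096 and 4412 CPM at P28 (log2 change 1.36 ± 0.20) and Phf7, a histone ubiquitin ligase of spermatids, had 1700.4, 1428 and 1256 CPM at P18 and 3885 and 4249 CPM at P28 (log2 change 1.48 ± 0.17). Odf2, given above, and Gstm5, a glutathione transferase with 726, 599.8 and 635 CPM at P18 and 2851 and 2942 CPM at P28 (log2 change 2.15 ± 0.13), entered the P28 top 10 from lower P18 levels. Fhl4 had 2213, 1724 and 1555 CPM at P18 and 4613 and 4846 CPM at P28 (log2 change 1.37 ± 0.20). In the edgeR test none of these calls had an adjusted p above 5.01e-06, that of Ldhc.

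Set beside earlier ages and the knockouts, the spermatid lists in heterozygotes had their highest sums at P28. The nuclear condensation genes summed to 235 to 254 CPM at P10, to 448 and 513 CPM at P14, and then to 1168, 948 and 927 CPM at P18 and 8896 and 9626 CPM at P28. The tail accessory genes summed to 2233, 1797 and 1933 CPM at P18 and 14254 and 15125 CPM at P28, and the acrosome genes to 4813, 3846 and 3734 CPM at P18 and 11221 and 11596 CPM at P28. In the P28 knockouts the sums were 989.9 and 1025 CPM for nuclear condensation, 2732 and 2812 CPM for the tail structures and 5437 and 5447 CPM for the acrosome. These knockout sums lay far below those of the P28 heterozygotes in all 3 lists. The interaction of age and genotype tested the difference between the steps. The heterozygous change exceeded that of the knockouts for 2077 features (12.7%) and was below it for 1798 (11%). The number below it was 386 without P28 heterozygous replicate 2, 602 without P28 heterozygous replicate 1 and 744 without P18 knockout replicate 2. It was 919 and 996 without P28 knockout replicates 1 and 2, 1109 without P18 knockout replicate 3 and 1166 without P18 heterozygous replicate 1. Among the 891 features that rose more than 16-fold, 402 differed from the knockouts by this test and 46 also rose in knockouts. For another 360, not called, the knockout libraries of at least 1 age were all at 0. In 211 of them every knockout library of both ages was at 0, where the model gives no usable test. Both P28 knockout libraries lay below both P28 heterozygous libraries for 888 of the 891. The 891 were picked by their rise in these same heterozygous libraries, which makes such a count likely. The share over all features was not counted, so the 888 are not read as a result. Tnp2, for example, had 0.856 and 0.734 CPM in the P28 knockouts (difference of the changes 10.97 ± 0.65, adjusted p = 1.10e-10).

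**Figure D5:**
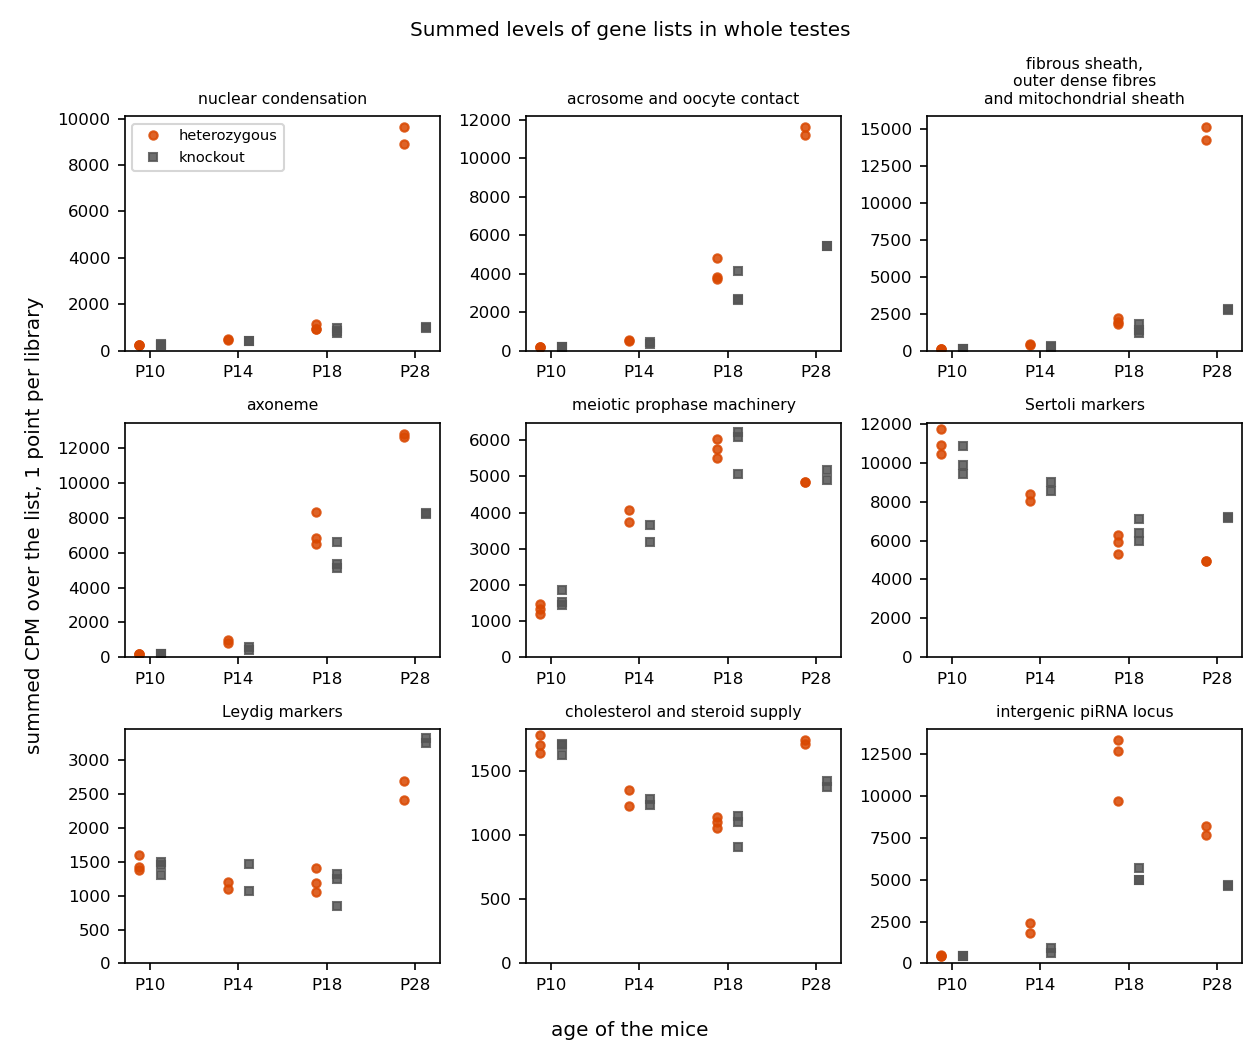
Summed CPM over 9 gene lists (y axis, starting at 0) at P10, P14, P18 and P28 (x axis), with 1 point per library, circles for heterozygous and squares for knockout testes. The heterozygous P28 libraries stand apart for nuclear condensation (8896 and 9626 CPM against at most 1168 CPM at P18), while the Leydig sums rise in both genotypes and the Sertoli sums decline with age in heterozygotes.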

How the data were processed

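Poly(A) RNA of whole mouse testes was measured in 20 libraries (P10, P14, P18 and P28, heterozygous and knockout), of which the 5 heterozygous libraries of P18 and P28 are compared here. The authors deposited a table of unnormalised counts with a row for each gene and piRNA locus, and it was used unchanged. The tools named by the submitters' processing notes are TopHat2 2.1, cutadapt 1.8.1, Cufflinks, and featureCounts from Subread (1.4.6-p3), with the build mm10. The annotation and the settings for strand and multiply matched reads are not given in the sources used here. The labels name a Nextera kit, which does not mark strand, so reads of overlapping or antisense genes cannot be told apart, and near-identical gene copies may share or lose reads.

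All 20 libraries entered 1 fit in edgeR 4.0.16 (R 4.3.3, limma 3.58.1) with 1 coefficient per age and genotype: filterByExpr by group, TMM scaling, glmQLFit and glmQLFTest, 12 residual degrees of freedom and a biological coefficient of variation of 0.0901. TMM factors were 0.887 to 0.966 in P18 and 0.743 and 0.729 in P28 heterozygous libraries. The Benjamini-Hochberg adjustment ran over all 16334 tested features. Standard errors are the log2 change divided by the root of F. The interaction compared the heterozygous with the knockout step. In simulated data on 15495 features, 200 expressed features were changed 2- or 4-fold in P28 heterozygotes and the rest were left equal between the ages. Of these changes, 95% of 2-fold and 100% of 4-fold ones were found, and 15 of 210 calls were false. For the interaction the shares were 82% and 99%, with 8 of 189 calls false. The simulation held no broad shift of library composition as in the real step, so these rates may not carry over to the real calls.

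Symbols of 23902 features (98.5%) matched the RefSeq gene table of GRCm38.p6, which supplied chromosomes, positions and promoters. Of 550 entries in 24 gene lists 541 were in the table. The lists, the 28 gene pairs and the samples were chosen with earlier results of these data known, so lists are described by counts and medians without a test. Genes named per list are up to 4 called in each direction with the largest change among those at a mean of 5 CPM or more in the higher group and no overlap between libraries. Outside the lists they are the 10 rises and 10 falls with the smallest p and the features with the most counts. The lack of overlap of genes named by the list rule is set by their choice and adds no support. A few genes that this rule names are not reported here. Other genes were named for their known role after their values were seen. Folds against a group at 0 are lower bounds with a floor of 3 counts over the group. Purified spermatocyte and round spermatid counts were scaled to library totals separately and are shown as levels only. The heterozygous libraries held 321800 to 514384 counts for spermatocytes and 448132 to 543401 for round spermatids, so low levels there rest on few reads. ChIP-seq, ATAC-seq and small RNA libraries were not analysed here.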

Additional observations from a re-analysis of the deposited data

Results flagged for a closer look

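The change from P18 to P28 differed between heterozygotes and knockouts, by edgeR's test of the difference itself, for 2077 features in the positive and 1798 in the negative direction. The genes below were picked from these after their values were seen, to span the groups described above, and knockout levels are means ± SD of 3 libraries at P18 and 2 at P28.

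For spermatid genes the heterozygous rise exceeded the knockout change. The difference was 10.97 ± 0.65 (adjusted p = 1.10e-10) for Tnp2, with knockout levels of 0.796 ± 0.101 CPM at P18 and 0.795 ± 0.0862 CPM at P28. It was 7.33 ± 0.38 (adjusted p = 2.02e-11) for Gapdhs, with knockout levels of 4.52 ± 0.432 CPM at P18 and 3.08 ± 0.186 CPM at P28, and 5.52 ± 0.34 (adjusted p = 2.11e-10) for Kif17. It was 4.07 ± 0.15 (adjusted p = 3.77e-13) for Stard10, 3.15 ± 0.25 (adjusted p = 6.32e-09) for the X-linked Tspan6 and 2.52 ± 0.19 (adjusted p = 4.27e-09) for Tekt5. For Pgk2, which also went up in knockouts (90.4 ± 30.7 CPM at P18 and 239 ± 1.997 CPM at P28), it was 1.31 ± 0.26 (adjusted p = 9.93e-04).

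Genes from the meiotic, piRNA, cholesterol and myoid lists differed too. The difference was 2.38 ± 0.40 (adjusted p = 1.83e-04) for Rec8, 1.2 ± 0.17 (adjusted p = 1.94e-05) for Plk1, 1.05 ± 0.16 (adjusted p = 5.88e-05) for Gtsf1 and 0.92 ± 0.20 (adjusted p = 0.002398) for Cyp51. For Actg2 it was 3.82 ± 0.20 (adjusted p = 2.67e-11), with knockout levels of 9.68 ± 1.81 CPM at P18 and 10.97 ± 0.478 CPM at P28.

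Among somatic markers the called differences were negative for 9 of 29 tested Sertoli, 2 of 23 Leydig, 2 of 12 myoid, 1 of 12 endothelial and 7 of 15 macrophage and leukocyte markers, where 11% of all tested features were called negative. They were positive for Actg2 of the myoid and Vwf of the endothelial list and for no other marker of these 5 lists, with a difference of 0.95 ± 0.28 (adjusted p = 0.01798) for Vwf. H2-Aa had 1.495 ± 0.753 CPM at P18 and 25.7 ± 2.31 CPM at P28 in knockouts, with a difference of -6.1 ± 0.73 (adjusted p = 2.81e-06), and Cd74 had 8.63 ± 2.75 CPM at P18 and 55.4 ± 0.618 CPM at P28, with a difference of -4.56 ± 0.55 (adjusted p = 2.76e-06). The P18 heterozygous libraries spread widely for both genes, as given above. For Thbs2 the difference was -1.73 ± 0.38 (adjusted p = 0.00253) and for Fshr -0.96 ± 0.25 (adjusted p = 0.0104). All these levels are relative to the rest of each library, and spermatid RNA made up a larger share of the P28 heterozygous libraries, so the part of composition in the negative differences was not tested.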

How the results depend on the processing

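Alternatives changed the size of the counts of calls more than their direction. Tested against a 1.5-fold change, 3138 features rose and 1483 fell, and 1014 positive and 69 negative differences from the knockouts were called. With library totals as the only scaling 7971 fell, 253 of them by more than 4-fold. Negative differences from the knockouts depended most on the setting: 759 with RLE size factors, 5489 with library totals, 1082 without the filter, 750 with DESeq2 and 533 with only the P18 and P28 libraries. Leaving out 1 library at a time gave 4766 to 5362 rises and 3454 to 4781 falls. It gave 1520 to 1610 rises and 122 to 144 falls of more than 4-fold, 871 to 957 rises of more than 16-fold, and 1611 to 2428 positive and 386 to 1755 negative differences. Deviations of same-numbered libraries from their group means had correlations of -0.0675 and -0.0745. With 2 P28 libraries, whose deviations mirror each other, these values cannot decide whether the numbers pair libraries. A replicate block gave 4968 rises and 4894 falls, and 2055 and 1691 differences. Features silent at P18 with at least 30 counts in each P28 library numbered 75. With library totals the changes of Mcm7 (-0.107), Rrm1 (-0.119), Trip12 (-0.272), Oxct1 (-0.00518) and Ppp3ca (-0.115) reversed. The causes were not tested. Of 3274 alternative values for named features, 178 fell short of the threshold that the main value passed and 38 passed it newly, and of 624 list counts 102 moved by more than 1.5 times. The number of libraries, 2 at P28, and their depth limit what can be said of genes near 1 CPM.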
